A study of Mus musculus with 93 samples.

Results

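The genes described here are 42 interferon-stimulated genes, chosen by name as a list of well-known targets of interferon signalling and matched by Ensembl identifier to the counts of the left brain hemisphere of 93 mice. All 42 were found among the 47729 gene identifiers of the files. In all, 41 of them passed the count filter that 23702 genes passed. The exception was *Oas3*, an oligoadenylate synthetase, whose mean in WT mice lay between 0.0208 CPM in PWK and 0.0784 CPM in B6.

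Interferons are secreted when a cell senses foreign or misplaced nucleic acid. Type I interferons bind their receptor and activate a complex that holds STAT2 and IRF9 and switches on many genes through a short promoter element. The products sense RNA and DNA, block viral replication, present antigen and feed back on the pathway itself. Microglia, the resident immune cells of the brain, respond to interferon, and a microglial state with raised interferon-stimulated genes is known from aged mice and from mice with amyloid plaques.

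The mice were of the laboratory strain C57BL/6J (B6) or of the strains PWK/PhJ (PWK), CAST/EiJ (CAST) and WSB/EiJ (WSB), which derive from wild mice. Each strain had wild type (WT) mice and mice carrying the *APP/PS1* transgenes, which give amyloid plaques, at 8 months of age. The transgenes came from a B6 line and were backcrossed to the wild-derived strains, with WT littermates as controls. There were 12 WT and 10 *APP/PS1* mice of B6, 12 and 12 of CAST, 12 and 12 of WSB, and 11 and 12 of PWK, of both sexes. Females numbered only 4 among the B6.*APP/PS1* mice and 5 among the PWK WT mice. PWK.*APP/PS1* mice were housed singly from an earlier age than the other mice because of aggression, so that in PWK the transgenes and the housing cannot be told apart.

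Reads counted on genes ranged from 53969802 to 106016200 per mouse, with a median of 66559575. A level is given below in CPM, counts scaled to the TMM library size, as the lowest, the median and the highest mouse. A difference is given on the log2 scale with the standard error (SE) of an edgeR fit, and a gene is called where its p-value, adjusted over all 23702 genes, was under 0.05. The share of reads aligned to more than 1 place averaged 12.0% in CAST and 11.9% in PWK, against 9.89% in B6 and 9.69% in WSB. B6 reads were aligned to the reference genome and the others to genomes carrying the variants of their strain. That the B6 libraries were made apart from the rest was inferred from library identifiers, and no label states it. A difference between B6 and another strain therefore cannot be told apart from the library set or the alignment, nor a difference between wild-derived strains from the alignment, since each had its own genome. The study also tested the strains one after another, so strain cannot be told apart from the time of testing. Responses to *APP/PS1* were taken within a strain. A second cohort of male CAST.*APP/PS1* mice was generated, and the labels do not say which mice came from it.

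The binding motif of the type I interferon complex, GAAANNGAAA, was searched on both strands of the RefSeq promoter windows of GRCm38, which run from 250 bases before to 50 bases after a gene start in the B6 reference. A window was found for 30 of the 42 members, and 21 of these 30 (70%) held the motif, against 3.99% of 27025 genes with a window. With 1 to 3 free bases between the GAAA units, the shares were 83.3% and 9.91%. The stretches below come from genes on which the results turn. They lie upstream of the start, read 5′ to 3′ on the strand of the gene, and capitals mark the motif, which reads TTTCNNTTTC where it lies on the opposite strand. The first 4 are genes that rose in PWK.*APP/PS1* mice, and the last 3 are genes whose response to *APP/PS1* was called in no strain.
Ifit1 (chr19:34640784-34640833, plus strand): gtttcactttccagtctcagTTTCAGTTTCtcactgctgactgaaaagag
Ifit3 (chr19:34583387-34583436, plus strand): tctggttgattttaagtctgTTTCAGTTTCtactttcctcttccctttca
Ifit3b (chr19:34607783-34607832, plus strand): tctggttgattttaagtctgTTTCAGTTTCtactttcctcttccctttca
Cxcl10 (chr5:92349073-92349122, minus strand): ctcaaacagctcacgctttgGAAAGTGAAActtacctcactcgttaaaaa
Isg15 (chr4:156200855-156200904, minus strand): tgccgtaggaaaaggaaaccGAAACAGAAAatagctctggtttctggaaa
Igtp (chr11:58199502-58199551, plus strand): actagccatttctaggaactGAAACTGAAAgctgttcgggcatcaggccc
Gbp7 (chr3:142530263-142530312, plus strand): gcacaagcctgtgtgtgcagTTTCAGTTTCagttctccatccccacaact

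The stretches of *Ifit3* and *Ifit3b*, neighbouring genes of chromosome 19, are the same letters throughout. *Isg15* held 3 overlapping matches. *Ifit2*, *Irf7*, *Irf9*, *Oasl1* and *Oasl2* had none at 1 to 3 free bases in this window. Among members that rose in PWK.*APP/PS1* mice 6 of 11 windows held the motif, and among the others 15 of 19. Of 32 other interferon-inducible genes with a window, 16 held it.

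In WT mice the members were mostly lower in the wild-derived strains than in B6. Against B6, 31 members were lower and 6 higher in CAST, where 31.1% of all genes tested were lower and 30.3% higher. PWK had 32 lower and 6 higher, with 30.4% and 28.8% of all genes. WSB had 28 lower and 2 higher, with 24.3% and 23.2% of all genes. The median log2 difference over the 41 members was -1.03 in CAST, -0.84 in PWK and -0.49 in WSB, while the medians over all genes lay between -0.004 and 0.0027. The 3 comparisons share the B6 mice.

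The wild-derived strains, which share a library set as inferred from the identifiers, also differed among themselves. WSB was higher than PWK in 24 members and lower in 8, with 27.5% and 27.0% of all genes, and the member median was 0.43. CAST was lower than WSB in 24 members and higher in 9, with 27.2% and 27.1% of all genes, and the member median was -0.52. CAST was lower than PWK in 17 members and higher in 11, with 27.1% and 27.8% of all genes, and a median of -0.11. In the F test over the WT strains 40 members differed, beside 84.5% of all genes. Only *Ifi207* did not pass. The highest WT mean of the 41 members was in B6 for 29, in PWK for 5, in WSB for 4 and in CAST for 3, and the lowest was in CAST for 18, in PWK for 16, in WSB for 6 and in B6 for *Mx2* alone.

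A mean score, the average over the 41 members of log2 CPM centred on all mice, also separated the strains. It was 0.526 ± 0.245 in B6 (SD, n = 12), 0.0151 ± 0.222 in WSB (n = 12), -0.447 ± 0.174 in PWK (n = 11) and -0.573 ± 0.0998 in CAST (n = 12). The ranges of B6 and of CAST or PWK did not overlap, since the lowest B6 mouse stood at 0.266 and the highest mice of CAST and PWK at -0.404 and -0.140. CAST and PWK overlapped widely. The WSB mean lay between theirs and that of B6, and the WSB range overlapped those of B6 and PWK. The score has no test here because the members were chosen with results of these data known.

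**Figure D1:**
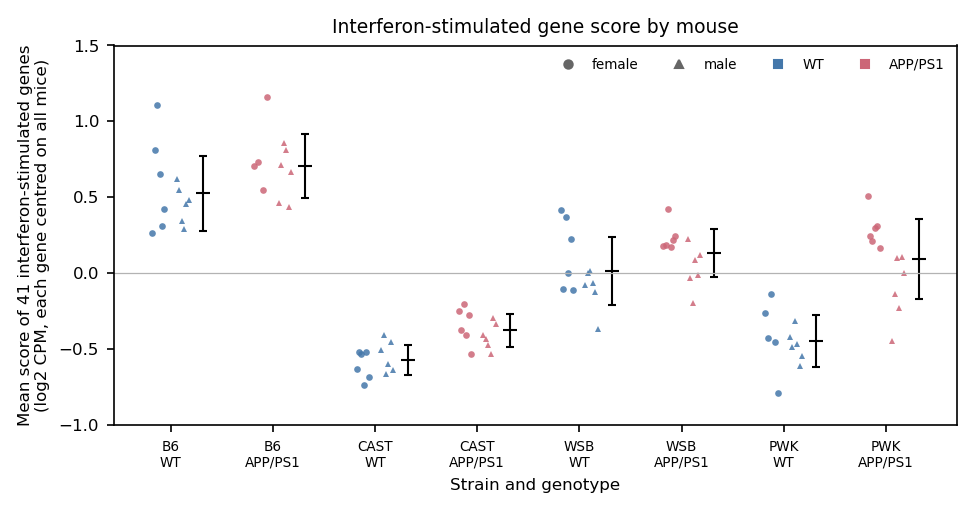
The vertical axis is the mean score of 41 interferon-stimulated genes (log2 CPM, each gene centred on all mice) and the horizontal axis the strain and genotype, with 1 point per mouse and bars for mean ± SD. The B6 mean was the highest in both genotypes, the CAST WT mean of -0.573 was the lowest of all, and the PWK mean moved from -0.447 in WT to 0.0941 in *APP/PS1* mice.

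Of the signal transducers, *Stat2* and *Irf9* differed little between strains and *Irf7* more. *Stat2*, a subunit of the interferon-activated transcription factor, had 37.5, 41 and 48.9 CPM in B6 and 31.6, 35.9 and 37.8 CPM in CAST, a log2 difference of -0.24 (SE 0.037). It was higher in WSB, by 0.14, and in PWK the difference of -0.07 was not called. *Irf9*, its DNA-binding partner, had strain means between 11.5 and 13.3 CPM, and its only call against B6 was in WSB, which was higher by 0.20. This call was lost with no count filter and in a fit of the WT mice alone (adjusted p = 0.0594 and 0.0507). *Irf7*, the factor that amplifies the type I response, is itself strongly induced by interferon. It had 1.05, 1.78 and 3.25 CPM in B6 and 0.315, 0.519 and 0.779 CPM in CAST, ranges that did not overlap. Its log2 difference was -1.81 in CAST and -0.64 in PWK. In WSB it was -0.22, which was not called.

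The ISG15 system was lower in each wild-derived strain. *Isg15*, a ubiquitin-like protein attached to other proteins, had 0.932, 1.32 and 2.07 CPM in B6 and 0.281, 0.560 and 0.909 CPM in CAST. *Usp18*, the protease that removes ISG15 and damps the receptor, differed from B6 by -2.04 in CAST, -1.34 in PWK and -0.75 in WSB.

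The RNA sensors *Ddx58* (RIG-I) and *Ifih1* (MDA5) lay below B6 in each strain, *Ddx58* by 0.20 to 0.32 and *Ifih1* by 0.39 to 0.77 on the log2 scale. *Dhx58* (LGP2), their regulator, was higher in CAST by 0.49 and lower in PWK by 0.40. *Zbp1*, which binds Z-form nucleic acid, and *Ifi204* and *Ifi207*, of a family of DNA-binding proteins, were close to the detection limit. *Ifi204* had 0.120, 0.299 and 0.801 CPM in B6 and 0, 0.0147 and 0.0897 CPM in PWK, a log2 difference of -3.44 (SE 0.47). *Ifi204* was also lower in CAST, by 1.73, and in WSB, by 1.70. *Zbp1* was lower than B6 in CAST (-1.53) and PWK (-1.87). *Ifi207* was called lower than B6 in PWK, by 0.96 with an adjusted p of 0.0476, but no difference among the wild-derived strains was called.

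The IFIT proteins, which bind foreign RNA, held some of the widest gaps. *Ifit3* had 6.15, 8.15 and 14.2 CPM in B6 and 5.00, 6.71 and 9.43 CPM in WSB. In CAST it had 1.10, 1.42 and 2.18 CPM and in PWK 0.543, 0.962 and 1.23 CPM. Every CAST and PWK mouse was thus below every B6 and WSB mouse, with log2 differences from B6 of -2.57 in CAST and -3.23 in PWK. *Ifit3b* followed with -2.93 in CAST and -2.10 in PWK, and *Ifit1* with -2.12 and -1.26. *Ifit2* went another way in PWK, where its 17.9, 21.9 and 23.5 CPM all lay above the 10.9, 14.4 and 16.1 CPM of B6 (log2 difference 0.60, SE 0.057), while in CAST it was lower by 0.79. These genes stand in a row with near copies, and reads shared between copies make each value uncertain. The neighbouring copies *Ifit1bl1* and *Ifit1bl2* had median counts of 192.5 and 55 in B6 and of 125 and 38.5 in WSB, against 1 and 0 in CAST and 1 and 0 in PWK.

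The oligoadenylate synthetases make the messenger that activates RNase L. *Oas2* had 0.839, 1.09 and 1.71 CPM in B6, and the other strains were lower by 2.75 in CAST, 2.89 in PWK and 1.39 in WSB. *Oas1a* was lower in CAST (-2.62) and PWK (-1.35), and WSB differed by 0.06, which was not called. *Oasl1*, a relative that lacks the enzyme activity, was lower in CAST by 1.94 and in PWK by 1.51. *Oasl2* set CAST apart from the rest. It had 2.95, 4.82 and 8.96 CPM in B6, 2.22, 3.01 and 4.69 CPM in WSB and 2.44, 3.74 and 7.05 CPM in PWK, but 0.562, 0.824 and 1.12 CPM in CAST. Against PWK the CAST difference was -2.31 (SE 0.15).

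The Mx GTPases, which block replication of RNA viruses, ran against the list. *Mx2* had 0.783, 1.04 and 2.37 CPM in B6 and 0.792, 1.37 and 2.01 CPM in WSB, but 3.92, 4.87 and 5.40 CPM in CAST and 2.46, 3.91 and 4.55 CPM in PWK. CAST and PWK lay above every B6 and WSB mouse. The log2 difference from B6 was 2.03 in CAST (SE 0.12) and 1.72 in PWK (SE 0.12). *Mx1* rose with it, by 1.42 in CAST and 1.56 in PWK, and WSB was lower than PWK by 2.09. The annotation of the B6 reference lists *Mx2* as a polymorphic pseudogene.

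The membrane restriction factors were lower in each strain than in B6. *Bst2* (tetherin, which holds budding virus at the cell surface) was lower by 0.47 to 0.66, and *Ifitm3*, which hinders viral fusion, by 1.25 in CAST, 0.95 in PWK and 0.37 in WSB.

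Of the other induced proteins, several were lower in each wild-derived strain. *Rsad2* (viperin, which makes an antiviral nucleotide) fell by 1.24 in CAST, 1.69 in PWK and 0.72 in WSB relative to B6. *Trim30a*, a ubiquitin ligase, *Rtp4*, a receptor chaperone, *Ifi35*, an interferon-induced leucine zipper protein, and *Parp14*, an ADP-ribosyltransferase, were called lower in each strain. Their largest differences were -1.37, -1.43 and -1.01 in CAST for the first 3, and -0.59 in WSB for *Parp14*. *Xaf1*, a promoter of apoptosis, was instead higher in PWK, with 7.75, 9.63 and 12.2 CPM against 5.79, 6.42 and 8.24 CPM in B6, and lower in WSB by 0.71. *Ifi27*, a small membrane protein, was lowest in PWK. It had 17.7, 20.5 and 28.1 CPM in B6, 16.6, 19.1 and 23.1 CPM in CAST, 15.3, 16.8 and 20.5 CPM in WSB, and 3.99, 5.10 and 6.37 CPM in PWK, a log2 difference from B6 of -2.07 (SE 0.07).

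The guanylate-binding proteins and immunity-related GTPases attack the membranes around intracellular pathogens and respond chiefly to interferon gamma. *Irgm1*, a regulator of the group, had 8.56, 10.4 and 13.2 CPM in B6, 6.59, 8.39 and 10.1 CPM in WSB, 3.33, 4.40 and 5.05 CPM in CAST and 1.13, 1.49 and 2.50 CPM in PWK. Neither CAST nor PWK overlapped any other strain. The PWK difference from B6 was -2.74 (SE 0.098). *Igtp* was lower than B6 by 1.14 to 1.26 in the wild-derived strains, and no difference among these was called. *Irgm2*, which shares exons with *Igtp* in the annotation, was lowest in WSB (-1.64). *Gbp7* was lower in PWK by 1.78 and in CAST by 0.80, and *Gbp2* in each strain by 0.24 to 0.56. *Gbp3* had 1.33, 2.22 and 3.55 CPM in WSB and 6.81, 8.13 and 11.7 CPM in PWK. Those ranges lie apart, with a log2 difference of -1.97 (SE 0.10), and B6 fell between at 4.41, 4.89 and 7.34 CPM.

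The secreted members went opposite ways in CAST and PWK, and both were lower than B6 in WSB. *Cxcl10*, a chemokine that draws T cells, had 0.183, 0.377 and 1.35 CPM in B6 and 0, 0.0144 and 0.143 CPM in PWK, a log2 difference of -3.51 (SE 0.48). *Cxcl10* was also lower in WSB, by 1.69, and in CAST, by 1.03. *Lgals3bp*, a secreted glycoprotein that binds galectin, was higher in CAST by 0.45 and in PWK by 0.56, and lower in WSB by 0.35.

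In 3 cases a member was nearly or wholly uncounted in a single strain. *Iigp1*, an immunity-related GTPase of chromosome 18, had 3 reads among 12 CAST WT mice and 1 read among 12 CAST.*APP/PS1* mice. B6 WT mice had 1649 reads, a ratio of 560 after scaling to the reads counted with an exact 95% interval of 191 to 2719 that covers counting error only. *Ifi44*, a gene of chromosome 3 known mainly as interferon-induced, had 16 reads in 5 of 12 CAST WT mice, and B6 was 36.8 times higher (interval 22.5 to 64.9). *Ifi27l2a*, the neighbour of *Ifi27* on chromosome 12, had 0 reads in 11 PWK WT mice, which allows up to 0.00367 CPM over the group (3 reads in all). It was at least 192-fold higher in B6, 262-fold in CAST and 112-fold in WSB. The neighbour *Ifi27l2b* had a median of 9 reads in PWK, 31.5 in CAST, 2 in B6 and 1 in WSB. With *Ifi27l2a* set to its bound, the member median of PWK against B6 was still -0.84. The cause of these near-zero counts was not tested, and in each comparison the strains were aligned to different genomes.

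**Figure D2:**
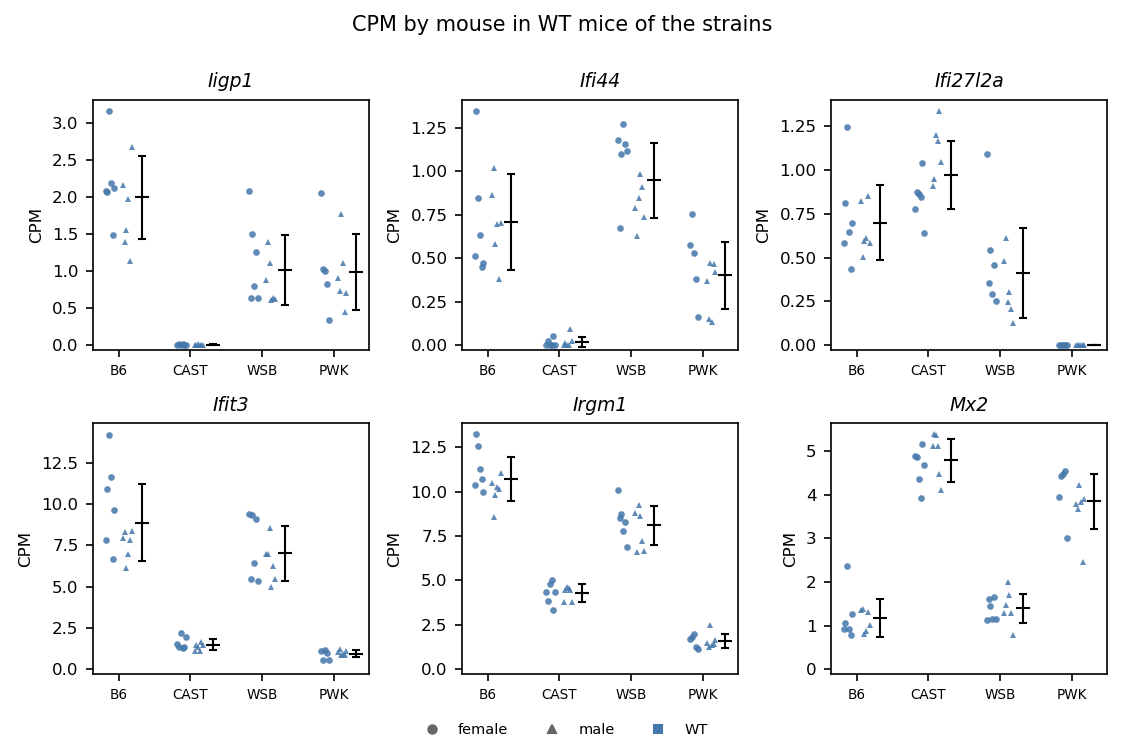
Each panel plots the CPM of a gene (vertical axis, from 0) in each WT mouse by strain (horizontal axis), with bars for mean ± SD. *Iigp1* and *Ifi44* sit at or near 0 in CAST and *Ifi27l2a* at 0 in PWK, *Ifit3* and *Irgm1* are low in CAST and PWK, and *Mx2* is high in both.

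Markers of cell types also differed between the WT strains, and their part in these differences was not tested. All 7 endothelial markers were lower in CAST and WSB than in B6, as were 6 of 7 in PWK. Their summed level ran from 230 to 274 CPM in B6 and from 177 to 231 CPM in the wild-derived strains. Of 12 microglial markers 9, 9 and 7 were lower and 1, 2 and 3 higher in CAST, WSB and PWK. Their summed median level was 341 CPM in B6, and the wild-derived strains had 308 (PWK), 275 (CAST) and 272 (WSB) CPM. All 6 oligodendrocyte markers were lower in each wild-derived strain. In hemisphere RNA fewer cells of a type and less RNA per cell cannot be told apart. Other interferon-inducible genes outside the members also ran lower than B6, in 23, 21 and 26 of 39 for CAST, WSB and PWK, with 4, 7 and 3 higher.

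The *APP/PS1* transgenes were accompanied by higher levels of the members chiefly in PWK. There 17 of 41 members rose and 0 fell, where 1.57% of all genes rose and 0.468% fell, and the median log2 difference over the members was 0.44. In B6 *Lgals3bp* alone rose, beside 0.215% of all genes, and none fell, beside 0.00844%. In CAST *Ifit3b* and *Mx1* rose, beside 0.544% and with 0.114% of all genes falling. In WSB edgeR called 0 members, where 0.308% of all genes rose and 0.0675% fell. There 5 members had an unadjusted p under 0.05, beside 1826 of all 23702 genes, and DESeq2 also called 0 members. The member medians of WSB, B6 and CAST were 0.11, 0.14 and 0.16, and the medians over all genes lay between -0.0045 and 0. Of the 41 members, 39 lay above 0 in PWK, 35 in B6, 34 in CAST and 31 in WSB. Of all genes, 47.9%, 47.7%, 48% and 49.9% lay above 0 in these strains. The members vary together between mice (below), so these counts are not independent results.

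**Figure D3:**
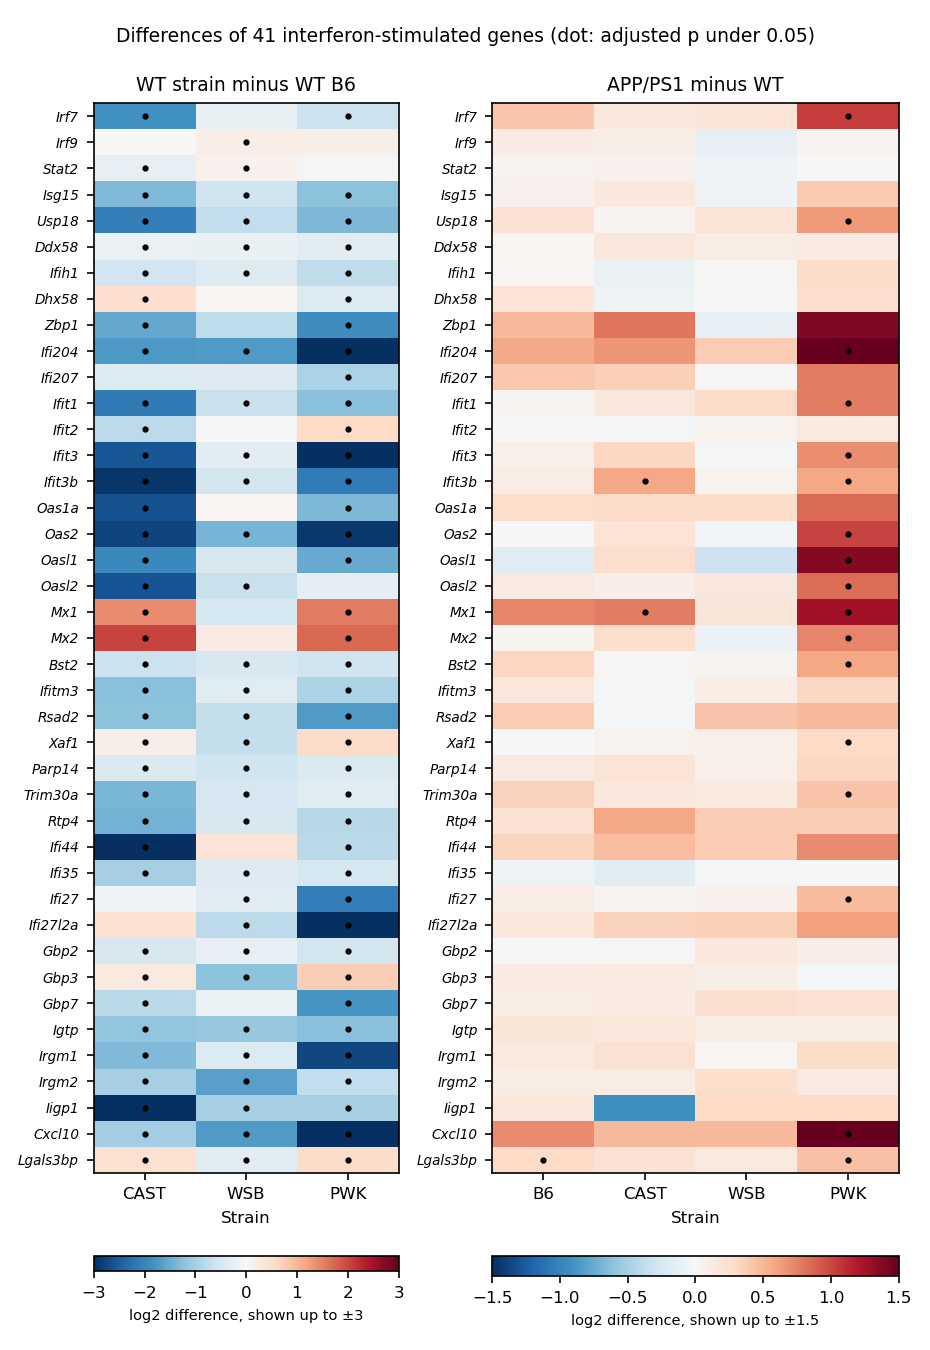
Rows are the 41 members that passed the count filter, ordered by role, and columns the strains, with colour for the log2 difference of WT mice from B6 (left) or of *APP/PS1* from WT mice (right) and a dot for an adjusted p under 0.05. On the left most dots lie on blue (lower than B6). Dots on red number 6 in CAST, 2 in WSB and 6 in PWK, among them *Mx1* and *Mx2* in CAST and PWK. On the right 17 of the 20 dots lie in the PWK column.

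In PWK the transcription factor *Irf7* was among the 17 members that rose. It had 0.729, 1.15 and 1.72 CPM in WT and 1.22, 2.56 and 3.50 CPM in *APP/PS1* mice, a rise of 1.03 (SE 0.164, adjusted p = 4.0e-06), with 12 of 12 *APP/PS1* mice above the WT median. Its partners in the pathway did not pass, with *Stat2* at -0.005 and *Irf9* at 0.04. *Usp18* rose by 0.64 (adjusted p = 0.0273) while *Isg15* differed by 0.39 (adjusted p = 0.306). The call of *Usp18* was lost with the library pool as a covariate, in a fit of the PWK mice alone and without any of 7 single PWK mice (adjusted p from 0.0502 to 0.0718).

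For *Mx1* the WT and *APP/PS1* groups of PWK did not overlap. This gene had 0.600, 0.955 and 1.47 CPM in WT and 1.52, 2.27 and 2.93 CPM in *APP/PS1* mice, a rise of 1.27 (SE 0.193, adjusted p = 1.5e-06). *Mx2* rose by 0.73 (SE 0.111, adjusted p = 1.1e-06), from 2.46, 3.91 and 4.55 CPM to 4.46, 6.40 and 8.40 CPM, and the groups overlapped only at the edge. *Mx1* also rose in CAST, by 0.77 (adjusted p = 0.0226), with 12 of 12 mice above the WT median. In B6 its difference of 0.74 had an adjusted p of 0.287.

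*Oasl2* went from 2.44, 3.74 and 7.05 CPM to 3.95, 7.76 and 12.1 CPM, a rise of 0.84 (SE 0.131). *Oas2* rose by 1.01 and *Oasl1* by 1.38, both from low levels, with at most 0.264 and 0.117 CPM in a WT mouse. The *Oas2* call was lost without PWK WT female 5, PWK.*APP/PS1* female 4 or PWK.*APP/PS1* male 5 (adjusted p from 0.056 to 0.0655). *Oas1a* differed by 0.85 with an adjusted p of 0.0653. Of the IFIT genes *Ifit1* rose by 0.76, *Ifit3* by 0.70 and *Ifit3b* by 0.58, and *Ifit2* at 0.15 was not called (adjusted p = 0.203). *Ifit3* reached 0.909, 1.49 and 2.71 CPM in PWK.*APP/PS1* mice, which is still below every B6 WT mouse.

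Of the remaining members, *Ifi204* had the largest PWK difference on the log2 scale. It rose by 2.73 (SE 0.483) from 0, 0.0147 and 0.0897 CPM to 0.0426, 0.246 and 0.454 CPM, a change between very low levels. *Cxcl10* rose by 2.32 (SE 0.503) from 0, 0.0144 and 0.143 CPM to 0.0165, 0.201 and 0.528 CPM, again with few reads per mouse. *Ifi27* was better counted and went from 3.99, 5.10 and 6.37 CPM to 5.63, 7.01 and 8.40 CPM, a rise of 0.48 (SE 0.0704, adjusted p = 5.8e-07). *Bst2* rose by 0.58, *Trim30a* by 0.42 and *Xaf1* by 0.29. *Lgals3bp* rose by 0.44 (SE 0.0637), from 20.7, 25.2 and 29.7 CPM to 28.7, 33.7 and 42.9 CPM. It also rose in B6, by 0.30 (adjusted p = 0.0164), and this call was lost without B6.*APP/PS1* female 1 or 2 (adjusted p = 0.0605 and 0.0769) and in a fit of the B6 mice alone (adjusted p = 0.193).

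Some groups of members were not called in PWK. The 7 guanylate-binding proteins and immunity-related GTPases differed by -0.02 (*Gbp3*) to 0.30 (*Iigp1*), and the RNA sensors by 0.13 (*Ddx58*), 0.25 (*Dhx58*) and 0.28 (*Ifih1*, adjusted p = 0.0641). *Zbp1* at 1.39 (adjusted p = 0.109) and *Ifi44* at 0.71 (adjusted p = 0.136) had wide errors. *Rsad2* differed by 0.48 and *Ifitm3* by 0.31, also without a call. *Ifi27l2a* had 1 read in the 12 PWK.*APP/PS1* mice and gives no fold.

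The CAST call of *Ifit3b* rested on 0.476, 0.769 and 1.11 CPM in WT and 0.718, 1.12 and 1.60 CPM in *APP/PS1* mice, a rise of 0.58 (SE 0.138, adjusted p = 0.0141). A fit of the CAST mice alone gave an adjusted p of 0.104. The CAST call of *Mx1* was lost with the library pool as a covariate (adjusted p = 0.069). *Rtp4* differed by 0.58 in CAST (adjusted p = 0.0571).

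**Figure D4:**
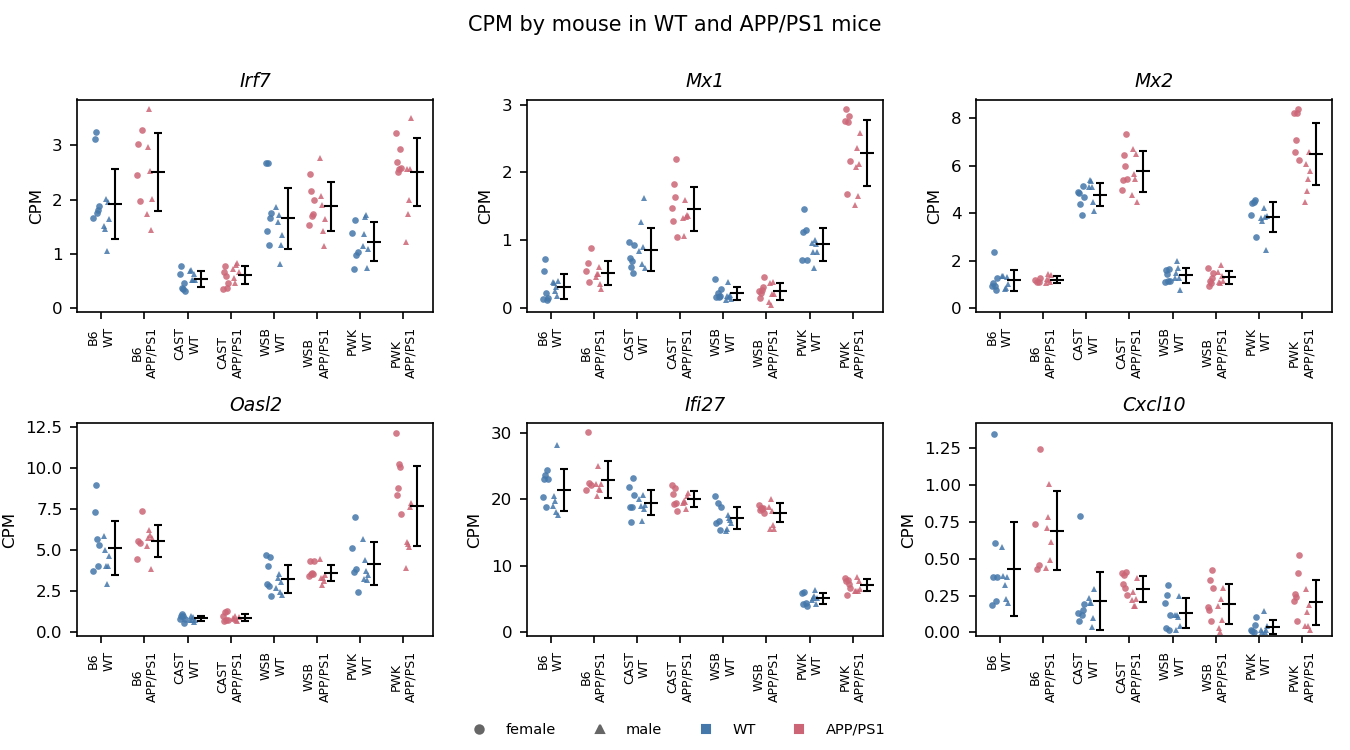
Each panel plots the CPM of a gene (vertical axis, from 0) in each mouse by strain and genotype (horizontal axis), with bars for mean ± SD. In PWK the *APP/PS1* mice sit above most WT mice in each panel and above all of them for *Mx1*, and *Ifi27* stays far below the other strains in both genotypes.

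The PWK response itself was tested against those of the other strains for each gene. In the F test over the 4 responses *Mx2* (adjusted p = 0.00529) and *Ifi27* (adjusted p = 0.0118) differed, beside 0.473% of all genes. The *Mx2* response was larger in PWK than in B6 by 0.70 (SE 0.171, adjusted p = 0.0459), the only member called there beside 0.224% of all genes. This call was lost in 10 of 16 alternatives, with adjusted p from 0.0507 to 0.179. They were DESeq2's size factors in the edgeR fit, both other count filters, and leaving out B6 WT female 3, B6.*APP/PS1* female 1, 2 or 3 or PWK WT female 1, 2 or 5. Without B6 WT female 3 the difference was 0.55. The WSB response was smaller than that of PWK for *Mx2*, by 0.82 (adjusted p = 0.00227), and for *Ifi27*, by 0.41 (adjusted p = 0.0142), beside 0.422% of all genes. CAST was smaller than PWK for *Ifi27*, by 0.44 (adjusted p = 0.0123), beside 0.228% of all genes.

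By edgeR the other PWK calls were not shown to differ from the responses of other strains. An unadjusted p under 0.05 was found for 13 members in PWK against B6, beside 1872 of all 23702 genes. CAST against PWK had 17 such members, beside 1608 genes, and WSB against PWK 17, beside 2219. The F test had 16, beside 2046 genes. Members vary together between mice, so these counts are not independent results. DESeq2 called more members in some of these comparisons (below). For *Irf7* the PWK response exceeded that of B6 by 0.62 (SE 0.232, adjusted p = 0.448), and CAST and WSB lay 0.87 and 0.84 below PWK (adjusted p = 0.129 and 0.0739). For *Mx1* WSB lay 1.08 below PWK (adjusted p = 0.0947). Between the responses of CAST and B6, WSB and B6, and CAST and WSB edgeR called 0 members, beside 0.0380%, 0.0380% and 0.127% of all genes. In those 3 comparisons 1, 2 and 3 members had an unadjusted p under 0.05, beside 1255, 1285 and 1669 of all 23702 genes. DESeq2 called 0 members.

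The score moved from -0.447 ± 0.174 in PWK WT (SD, n = 11) to 0.0941 ± 0.263 in PWK.*APP/PS1* mice (n = 12), a difference of 0.54, and the groups overlapped. In B6 it was 0.709 ± 0.211 (n = 10), in CAST -0.377 ± 0.107 (n = 12) and in WSB 0.134 ± 0.160 (n = 12) in *APP/PS1* mice, differences of 0.20, 0.20 and 0.12. Each difference of the score is the mean of the difference in females and that in males. The SD between mice of a group was 0.173 over all groups. Within the 3 library pools the PWK difference was 0.54, 0.61 and 0.36. The 0.61 of pool 2 is an exception to averaging over the sexes. Its PWK WT mice were all male, and its PWK.*APP/PS1* mice were of both sexes. In pool 3 the only males, PWK WT male 4 and PWK.*APP/PS1* male 1, stood at -0.467 and -0.449. Leaving out each PWK mouse in turn gave between 13 and 19 calls, of which 13 to 17 were among these 17, and the lowest number came without PWK WT female 5, when *Oas2*, *Oasl1*, *Trim30a* and *Usp18* were lost.

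The sexes were taken apart within a strain after the pooled results were seen. In PWK females 17 members rose, beside 0.802% of all genes, and in PWK males 5 rose (*Mx1*, *Mx2*, *Lgals3bp*, *Ifi27* and *Ifi204*), beside 0.570%. The member medians were 0.55 and 0.28. *Irgm1* was called in females, at 0.62 (adjusted p = 0.00723), and was -0.07 in males, but edgeR called 0 members for the difference of the sexes in PWK, where 5 had an unadjusted p under 0.05 and 0.00844% of all genes were called. Averaged over the strains, edgeR called 0 members for the WT sex difference, beside 0.456% of all genes, and DESeq2 called 0 members. There 4 members had an unadjusted p under 0.05, beside 2845 of all 23702 genes. In direction 37 of 41 members were higher in WT females, beside 50.5% of all genes, with a member median of 0.091. Members vary together between mice, so this count is not a set of independent results. For the sex difference of the response edgeR called 0 members, beside 0.00422% of all genes, and DESeq2 called 0 members. There 2 members had an unadjusted p under 0.05, beside 1677 of all genes.

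Mice of the same group also varied together in the members. After the means of the 16 groups were removed, the mean pairwise correlation of the 41 members over the 93 mice was 0.20, and over all genes 0.00076, given as a description because the genes share each library and its depth. The first component held 24.8% of the members' variance. *Oasl2* was closest to the rest (mean correlation 0.35), and *Dhx58* was farthest (0.035). The mice with the highest score were B6.*APP/PS1* female 4 at 1.16 and B6 WT female 3 at 1.11.

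The interferons themselves were hardly counted. *Ifnb1* had 9 reads in 3 mice and *Ifng* 23 reads in 8 mice of all 93, and of 10 interferon genes only *Ifnk*, with 277 reads in 44 mice, passed the filter. Of 10 receptor and JAK-STAT genes none was called in a response. *Irf8*, a factor that microglia need, rose in each strain, by 0.62 in PWK, 0.41 in CAST, 0.33 in WSB and 0.32 in B6. In PWK the RNA sensor *Tlr7* rose by 0.75, the phosphatase *Ptpn6* by 0.55, and of 10 antigen presentation genes *B2m* rose by 0.29, *Tap1* by 0.38 and *Psmb8* by 0.52. Of 39 other interferon-inducible genes *Phf11b*, *Sp110* and *Oas1g* rose in PWK and none in the other strains.

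Microglial markers rose in the same mice, and their part in the rise of the members was not tested. Of 12 microglial markers 8 rose in PWK, 5 in CAST, 4 in WSB and 3 in B6, and none was at 0 in every mouse. Their summed level ran from 297 to 349 CPM in PWK WT and from 346 to 429 CPM in PWK.*APP/PS1* mice. Of 12 markers of plaque-associated microglia 8, 7, 7 and 10 rose in B6, CAST, WSB and PWK. None of the 5 border macrophage, 6 tested leukocyte or 7 endothelial markers was called in any strain.

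**Figure D5:**
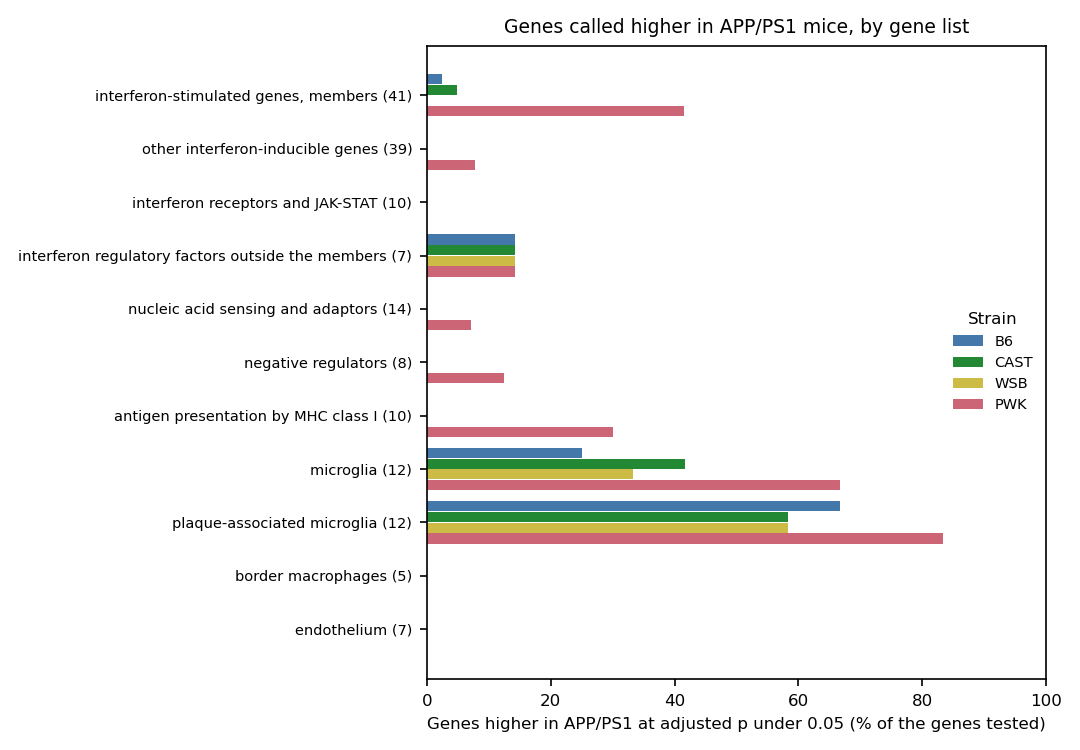
Bars give the percent of tested genes of each list (number in parentheses) called higher with the transgenes than without, by strain, on an axis from 0 to 100. Of the members 17 of 41 were called in PWK and at most 2 in the other strains, while the plaque-associated microglia list has 7 or more of 12 in every strain.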

How the data were processed

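Transcripts of the left hemisphere were sequenced in 93 mice, 1 library each. The authors trimmed the reads with Trimmomatic, aligned them with STAR (B6 to mm10, the other strains to genomes carrying their variants) and counted them on genes with HTSeq; whether the counting used strand is not given in the sources used here. The deposited values are raw counts, without normalization. Ensembl identifiers were named with GENCODE M21 (GRCm38), which matched 47310 of 47729. The reads counted on genes numbered 53969802 to 106016200 a mouse, so that counting error is small except for genes with few reads.

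A gene was tested if 10% of the mice or more had a count of 10 or more, the threshold that the study states. The study reports fewer genes past it than the 23702 here, so the sets of genes differ. Counts were scaled by TMM and tested with edgeR 4.0.16 in R 4.3.3 by a quasi-likelihood fit over 16 groups of strain, genotype and sex, where each contrast is the mean of both sexes, with Benjamini-Hochberg adjustment over all genes and a call at 0.05. Where DESeq2 1.42.0 is not named, an adjusted p comes from edgeR. The fit was checked on simulated counts that had the same dispersion for all genes and no strain differences. That check does not cover genes that vary more between mice. The score used log2 CPM with a prior count of 2. Tables used pandas 2.3.3, scipy 1.17.1 and numpy 2.4.6 and figures matplotlib 3.10.9, all in Python 3.11.15.

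The members and the gene lists were chosen with earlier results of these data known. Named in the text are up to 5 members with the largest WT differences per strain pair and direction, every member called in a response or in a difference of responses, every other member by its role, and up to 4 called genes per other list. Alternatives were DESeq2's size factors and test, no or a stricter count filter (50% of mice), and fits of a single strain or of WT mice. Others were the library pool, a replicate block, and leaving out mice. The 3 pools were inferred from runs of 24 library identifiers, and no label names them. Leaving out each further PWK mouse or B6 WT female 3, and the sexes apart, were chosen after seeing the data. Mice with the same replicate number did not deviate together: 0 of 45 pairs had a correlation over 0.1. Near copies (the *Ifit*, *Oas*, *Gbp*, *Irg*, *Ifi200* and *Ifi27* clusters) and genes with overlapping exons, among them *Irf7*, *Irf9*, *Usp18*, *Dhx58*, *Oasl1*, *Parp14*, *Rtp4*, *Ifi35*, *Igtp*, *Irgm2* and *Cxcl10*, have uncertain counts.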

Additional observations from a re-analysis of the deposited data

Results flagged for a closer look

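Some responses differed between strains by the test of the difference itself, with no cause tested. For *Mx2* the response of PWK exceeded that of B6 by 0.70 on the log2 scale, a call lost in 10 of 16 alternatives. The response of WSB minus that of PWK was -0.82. For *Ifi27* the response of CAST minus that of PWK was -0.44, and that of WSB minus that of PWK -0.41. The F test over the responses gave adjusted p-values of 0.00529 for *Mx2* and 0.0118 for *Ifi27*.

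Single mice stood apart from the rest of their group by Dixon's test. In the score these were WSB.*APP/PS1* female 3 at 0.424 and WSB WT male 6 at -0.368. Among the members called in PWK, on the log2 CPM scale, they were PWK.*APP/PS1* female 1 for *Lgals3bp* (5.42), PWK.*APP/PS1* male 1 for *Usp18* (-1.68), PWK WT female 5 for *Oas2* (-3.51), PWK WT male 4 for *Ifi204* (-3.08), PWK WT male 2 for *Ifit1* (0.11) and PWK WT male 5 for *Mx2* (1.31). Over all members and groups 34 of 656 (5.18%) passed this test, and chance gives about 1 in 20.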

How the results depend on the processing

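Of 83 named differences of single members, 1679 of 1710 alternative values kept direction and call, 31 lost the call and 0 turned direction. For the response in B6, 1 member was called, and 0 in a fit of that strain alone, 0 in females and 0 in males, with 0 to 2 when a mouse was left out. In CAST 2 were called, 1 with the library pool as a covariate, 1 in females and 0 in males, with 2 to 3 when a mouse was left out. In PWK 17 were called, 5 in males alone, 19 by DESeq2 and 13 to 19 when a mouse was left out. For the PWK response minus that of B6 there was 1 call, but 0 with DESeq2's size factors, 0 with no count filter, 0 with the stricter filter, 2 by DESeq2's test, and 0 to 3 when a mouse was left out. For WSB minus PWK there were 6 calls by DESeq2 instead of 2 (2 to 5 when a mouse was left out), for CAST minus PWK 1 to 2, and in the F test 4 by DESeq2 instead of 2. The shares of all genes called under these alternatives are not given here, except for the sexes apart in PWK (above). The counts therefore do not show whether calls changed among the members in particular. The cause of these changes was not tested. The replicate block gave 17 calls in PWK and 3 in the F test, it changed no direction, and same-numbered mice are not treated as pairs.

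The difference of the score over members outside tandem gene families was -0.888 for CAST against B6 and -0.70 for PWK against B6 in WT mice. On DESeq2's variance-stabilized scale, which compresses low counts, it was -0.263 for CAST, -0.150 for WSB and -0.233 for PWK against B6, 0.0829 for WSB against PWK, -0.113 for CAST against WSB, and 0.132 for the PWK response. The CAST response of the score was -0.00346 in pool 2. That pool held 1 CAST.*APP/PS1* mouse, a female, which was set against CAST WT mice of both sexes. The PWK response was 0.364 in pool 3. Depth limits *Zbp1*, *Ifi204*, *Ifi207*, *Oasl1*, *Oas3* and *Cxcl10*, which had few reads per mouse.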
